A study of Mus musculus with 6 samples.

Results

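De novo fatty acid synthesis was followed through 10 genes in mouse small intestinal organoids exposed to low density lipoprotein (LDL): Acly, Acaca, Acacb, Fasn, Me1, Elovl6, Scd1, Scd2, Srebf1 and Mlxipl. They were chosen by name, as the rows whose Ensembl identifier has one of these symbols in the GENCODE mouse annotation. The rule uses no measured value, but the set was put together with earlier results of these data known. All 10 were among the 55416 genes of the table, and all 10 passed the filter on the mean normalized count (10 or more over the libraries), which left 18459 genes for testing. Organoids were grown in Matrigel and IntestiCult medium from crypts of duodenum and jejunum of 3 C57BL/6 mice whose genotype was labelled WT, and the ages of the mice are not given in the sources used here. Cultures of each mouse received either 50 μg/ml LDL or PBS over 5 days, and each culture gave 1 RNA-Seq library, so that 3 LDL-treated and 3 PBS-treated samples were compared. No transgene, deletion or further agent is labelled in either group.

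Cytosolic fatty acid synthesis starts from citrate, which ATP citrate lyase (Acly) cleaves to acetyl-CoA. Acetyl-CoA carboxylases then make malonyl-CoA, fatty acid synthase (Fasn) builds palmitate from it with NADPH that malic enzyme (Me1) helps to supply, and an elongase (Elovl6) and stearoyl-CoA desaturases (Scd1, Scd2) turn palmitate into longer and monounsaturated acids. The transcription factors SREBP-1 (Srebf1) and ChREBP (Mlxipl) are known for inducing these enzymes in response to insulin, oxysterols and sugars. The carboxylases have different roles: ACC1 (Acaca) is cytosolic and feeds Fasn, whereas ACC2 (Acacb) sits at the outer mitochondrial membrane, where its malonyl-CoA restrains carnitine palmitoyltransferase and with it the entry of fatty acids into oxidation.

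Between 22061545 and 31073360 reads per library lay on genes. The 18S ribosomal gene copy Rn18s-rs5 took 7.62% of the reads (95% Wilson interval 7.61 to 7.63) in the LDL-treated library of mouse 1 and 3.02% (3.02 to 3.03) in the PBS-treated library of mouse 2, against 0.0826% to 0.225% in the others. These intervals cover counting error only. The animal identifier of mouse 3 follows another naming pattern than those of the other mice, although its genotype label is also WT. For the genes called in any limma fit, and for Srebf1, values are also given with these libraries left out.

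LDL raised 2 of the 10 genes, Acacb about 10-fold and Me1 about 4-fold, while the cytosolic core of the pathway (Acly, Acaca, Fasn) had slightly lower means. The other genes ranged from a 1.29-fold higher mean for Elovl6 to a mean 55.1% lower for Scd1. Calls required both an adjusted p-value below 0.05 and more than 1.5-fold in limma, fitted to all 18459 genes without a term for the mouse. In that fit Acacb and Me1 were called upregulated, as were 0.878% of all genes, and 0 of the 10 were called downregulated, as were 0.395% of all genes. At an unadjusted p-value under 0.05 limma gave 8 of the 10, 3 of them higher and 5 lower with LDL, beside 19.7% of all genes (9.96% higher, 9.73% lower), and edgeR without the block also called 0 down. When the mouse was added as a block, 2 genes were called upregulated and 2 downregulated (Scd1 and Scd2), beside 5.68% and 3.46% of all genes. At any fold, the blocked fit had 3 of the 10 higher and 5 lower past an adjusted p-value of 0.05, beside 8.27% and 7.45% of all genes. DESeq2 without the block called 1 downregulated, Scd2. The median log2 fold change of the 10 genes was -0.28, and that of all genes tested was -0.016. The values of the treatments were fully separated for 3 higher and 4 lower genes, against 11.9% and 12.3% of all genes tested.

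**Figure D1:**
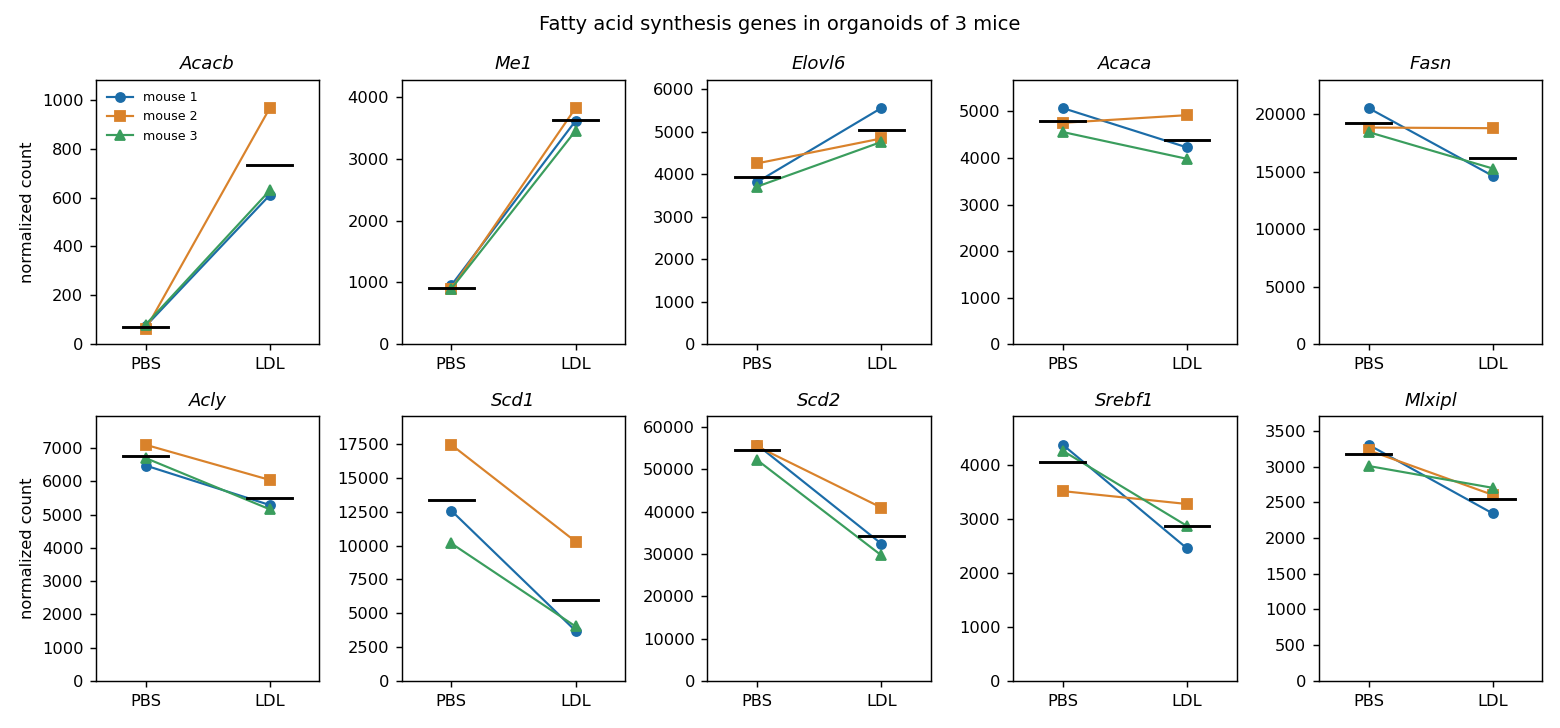
Normalized counts of the 10 genes (vertical axes, each starting at 0) in PBS- and LDL-treated organoids. Points of the same colour and shape joined by a line are 1 mouse, and black bars are means of 3 libraries. Acacb and Me1 rose in every mouse, Scd1 and Scd2 were lower in every mouse, and the values of Acaca and Fasn overlapped.

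The sequences before annotated start sites are shown for the genes that rose (Acacb, Me1) and for Fasn and Srebf1, the core synthase and its regulator, which did not rise. RefSeq holds promoter windows of 300 bases (250 before and 50 after a start, from a table on GRCm38.p6) for 8 of the 10 genes, 12 windows in all, and Scd1 and Scd2 had no entry. Each window was placed on GRCm39 by an exact match, and only bases outside annotated exons are printed. Capitals mark CCAAT, its reverse complement ATTGG, and GGGCGG, a GC box. The Acacb stretch, chr5:114303329-114303569 on the plus strand, stops short of a start 19272 bases inside the gene, because the last 9 bases before that start lie in an annotated exon. The Me1 stretch is chr9:86578105-86578217, the Fasn stretch chr11:120715403-120715623 and the Srebf1 stretch chr11:60101298-60101547, all on the minus strand. Me1 has 2 windows, of which the first is shown, and Srebf1 has 3, of which the third is shown, with a start 12110 bases inside the gene. The printed Me1 bases hold none of these motifs, the 3 GC boxes of that window lying in the annotated exon, and the other Me1 window, outside annotated exons, holds an ATTGG and is not printed.
Acacb: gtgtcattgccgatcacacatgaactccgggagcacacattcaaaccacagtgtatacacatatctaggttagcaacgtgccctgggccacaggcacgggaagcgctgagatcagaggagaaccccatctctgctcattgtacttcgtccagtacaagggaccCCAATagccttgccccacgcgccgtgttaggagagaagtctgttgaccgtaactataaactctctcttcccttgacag
Me1: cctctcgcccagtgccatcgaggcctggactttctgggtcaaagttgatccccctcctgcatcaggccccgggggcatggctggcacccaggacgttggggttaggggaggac
Fasn: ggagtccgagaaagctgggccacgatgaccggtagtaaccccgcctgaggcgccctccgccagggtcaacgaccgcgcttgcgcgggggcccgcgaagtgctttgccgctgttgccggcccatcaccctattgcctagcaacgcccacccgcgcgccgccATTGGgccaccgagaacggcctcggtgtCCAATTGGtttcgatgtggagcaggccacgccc
Srebf1: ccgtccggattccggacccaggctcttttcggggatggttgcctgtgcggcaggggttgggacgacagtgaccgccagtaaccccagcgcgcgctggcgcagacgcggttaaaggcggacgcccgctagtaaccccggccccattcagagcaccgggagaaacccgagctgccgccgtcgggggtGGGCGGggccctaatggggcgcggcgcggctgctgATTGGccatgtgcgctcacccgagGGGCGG
Both strands were searched. CCAAT was in 7 of the 12 windows and in 37.4% of all 32841 windows in RefSeq's table, and GGGCGG in 5 of the 12 and in 35.7% of all. The E-box CACGTG, a ChREBP and USF core, was in 1 of the 12, that of Mlxipl, and in 7.15% of all windows. No window of the 10 genes held an exact copy of a sterol regulatory element (in 0.0913% of all windows), of the perfect DR1 repeat that PPAR binds (0.0396%) or of the perfect DR4 repeat that LXR binds (0.0152%). These are matches of letters in short windows, so they say nothing about binding.

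Acacb (ENSMUSG00000042010, chromosome 5, 114284307 to 114388822, plus strand) was the least abundant of the 10 genes, also per length. Its normalized counts were 73.5, 60.9 and 79.8 in the PBS-treated organoids of mice 1, 2 and 3, and 610, 966 and 629 with LDL. All LDL-treated values were far above all PBS-treated values, and the LDL-treated organoids of mouse 2 were the highest. The means were 71.4 ± 9.62 with PBS and 735 ± 200 with LDL (SD, n = 3), or 3.32 ± 0.21 (SE) as a log2 fold change (limma, adjusted p = 0.000897). Within a mouse the rise was between 7.88-fold and 15.9-fold. The PBS values rested on 49 to 98 reads and the LDL values on 500 to 1062. By log2 fold change Acacb was in place 73 of the genes tested.

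Acaca (ENSMUSG00000020532, chromosome 11, 84020476 to 84292477, plus strand), which encodes the cytosolic carboxylase, had normalized counts of 5071, 4754 and 4557 with PBS and 4226, 4919 and 3981 with LDL. The groups overlapped, with mouse 2 slightly higher and mice 1 and 3 lower with LDL. On the log2 scale the change was -0.14 ± 0.11 (SE; limma, adjusted p = 0.533). Counted per kilobase of exon, Acacb made up 2.55%, 2.26% and 3.07% of the carboxylase pair in PBS-treated organoids of mice 1, 2 and 3, and 20.7%, 26.2% and 22.2% in LDL-treated organoids. With the length of the longest transcript in place of all exons, the shares were 1.31% to 1.79% with PBS and 13.0% to 16.9% with LDL. Acaca therefore had the higher level per length in all 6 libraries, and the share of Acacb was several times larger in each LDL-treated library than in any PBS-treated one. The log2 ratio of Acacb to Acaca was -5.22 ± 0.23 with PBS and -1.75 ± 0.23 with LDL (SD, n = 3), a difference of 3.48 that ranged from 3.17 to 3.94 within mice. The exact two-sided permutation test gave p = 0.1, the smallest value that 3 against 3 samples allow.

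Me1 (ENSMUSG00000032418, chromosome 9, 86462646 to 86578104, minus strand) encodes the cytosolic malic enzyme, which makes pyruvate and NADPH from malate. Its normalized counts were 953, 897 and 898 with PBS and 3614, 3820 and 3453 with LDL in mice 1, 2 and 3. The samples of each treatment lay close together and the treatments were far apart. The means were 916 ± 32.2 and 3629 ± 184 (SD, n = 3), or 1.98 ± 0.084 (SE) as a log2 fold change (limma, adjusted p = 0.000278), and the rise within mice was 3.79-fold to 4.26-fold. Among the 18459 genes, Me1 had the lowest p-value in this fit. Exons of Me1 and of Rwdd2a share 2146 bases on opposite strands, and the strand setting of the read counting is not given in the sources used here. Rwdd2a had mean normalized counts of 10.97 with PBS and 37.4 with LDL, a small fraction of those of Me1 (log2 fold change 1.70, limma, adjusted p = 0.0879, or 0.00875 in the blocked fit).

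The calls of Acacb and Me1 held without each of the 6 libraries in turn, and their adjusted p-values from limma were at most 0.0147 and 0.00645, with log2 changes of 3.11 to 3.44 and 1.95 to 2.02. Without both libraries of mouse 3, which leaves 2 against 2, the log2 fold changes were 3.50 and 2.01, and no gene of the 18459 was called (limma, adjusted p = 0.207 and 0.132). With the mouse as a block and mouse 3 left out, both genes were called (limma, adjusted p = 0.00487 and 0.00358).

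**Figure D2:**
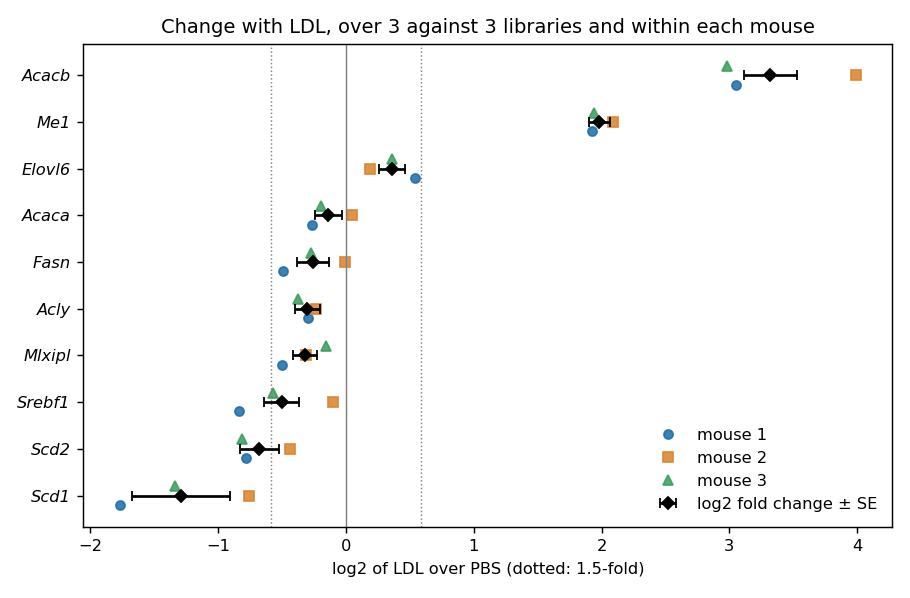
Log2 of LDL over PBS for the 10 genes (horizontal axis). Black diamonds with bars are the log2 fold change and its standard error over 3 against 3 libraries, coloured points are the values within mice 1, 2 and 3, and dotted lines mark 1.5-fold. Acacb and Me1 lie beyond the dotted line on the right in all mice and Scd1 on the left in all mice.

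Acly (ENSMUSG00000020917, chromosome 11, 100367165 to 100440756, minus strand) had normalized counts of 6477, 7100 and 6701 with PBS and 5289, 6043 and 5160 with LDL. Every LDL-treated value was below every PBS-treated value, by a modest margin. On the log2 scale the change was -0.30 ± 0.097 (SE; limma, adjusted p = 0.150), and it stayed under 1.5-fold in the fit with the mouse block, where its adjusted p-value was 0.0360. Fasn (ENSMUSG00000025153, chromosome 11, 120696672 to 120715995, minus strand) had 20558, 18861 and 18467 with PBS and 14653, 18806 and 15295 with LDL. The LDL-treated organoids of mouse 2 lay within the PBS range, and in that mouse the ratio of LDL to PBS was 0.997. On the log2 scale the change was -0.25 ± 0.13 (SE; limma, adjusted p = 0.315).

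The log2 ratio of Me1 to Fasn per kilobase of exon was -3.46 ± 0.034 in PBS-treated and -1.22 ± 0.14 in LDL-treated organoids (SD, n = 3). The difference was 2.24 and ranged from 2.09 to 2.41 within mice, with no overlap (exact two-sided permutation test, p = 0.1, the smallest possible). Fasn remained the more abundant of the pair per length in all 6 libraries.

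Elovl6 (ENSMUSG00000041220, chromosome 3, 129326004 to 129432144, plus strand), which encodes the elongase that takes palmitate to stearate, was the remaining gene with a higher mean. It had normalized counts of 3814, 4252 and 3707 with PBS and 5553, 4838 and 4756 with LDL. All LDL-treated values were above all PBS-treated values, and the gap was smallest in mouse 2, at 1.14-fold. LDL against PBS gave 0.36 ± 0.10 (log2, SE; limma, adjusted p = 0.115, or 0.0309 in the blocked fit), under 1.5-fold in both fits.

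Scd1 (ENSMUSG00000037071, chromosome 19, 44382894 to 44399154, minus strand) encodes the desaturase that makes oleate from stearate and varied most between mice. Its normalized counts were 12575, 17439 and 10156 with PBS and 3703, 10295 and 4025 with LDL. Mouse 2 was the highest in both treatments, and its LDL-treated value exceeded the PBS-treated value of mouse 3, so the groups overlapped although each mouse was lower with LDL. The means were 13390 ± 3709 and 6008 ± 3717 (SD, n = 3), and the ratio of LDL to PBS was between 0.294 and 0.590 within mice. On the log2 scale the change was -1.29 ± 0.38 (SE), called in the blocked fit (limma, adjusted p = 0.131, or 0.00281 in the blocked fit). Leaving out the LDL-treated organoids of mouse 2 also gave a call, without the block (log2 fold change -1.76, limma, adjusted p = 0.00129).

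Scd2 (ENSMUSG00000025203, chromosome 19, 44281613 to 44295303, plus strand), the neighbouring desaturase gene, was the most abundant of the 10, also per length. It had normalized counts of 55829, 55461 and 52233 with PBS and 32448, 40984 and 29702 with LDL. The treatments did not overlap, and the LDL-treated organoids of mouse 2 were the closest to the PBS range. The means were 54508 ± 1978 and 34378 ± 5883 (SD, n = 3), or -0.68 ± 0.15 (SE) on the log2 scale, which limma did not call unless the mouse was in the fit (limma, adjusted p = 0.0779, or 0.0109 in the blocked fit). Limma with no filter on the mean and DESeq2, both unblocked, also called it (adjusted p = 0.0312 and 0.000377). Leaving out the LDL-treated organoids of mouse 2 gave -0.81, and Scd2 was then called (limma, adjusted p = 0.00446). Neither gene was called when the LDL-treated organoids of mouse 1 were left out (log2 changes of -1.02 for Scd1 and -0.64 for Scd2, limma, adjusted p = 0.284 and 0.165). The same held for the PBS-treated organoids of mouse 2 (-1.08 and -0.67, limma, adjusted p = 0.381 and 0.256). With mouse 3 left out of the blocked fit, Scd1 and Scd2 were not called (limma, adjusted p = 0.0696 and 0.192).

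Reads of these close paralogs could be split by the counting, so their sum is also given: 67898 ± 5274 with PBS and 40386 ± 9511 with LDL (SD, n = 3). The log2 ratio of Scd2 to Scd1 per kilobase of exon was 2.00 ± 0.36 with PBS and 2.61 ± 0.60 with LDL (SD, n = 3), higher with LDL within each mouse by 0.32 to 0.98. The difference of the means was 0.61. It was 0.38 when the LDL-treated organoids of mouse 1 were left out and 0.95 when those of mouse 2 were (exact two-sided permutation tests, p = 0.5 and p = 0.1, the latter the smallest for 3 against 2). Leaving out the PBS-treated organoids of mouse 2 gave 0.41 (exact permutation test, p = 0.4), and leaving out both libraries of mouse 3 gave 0.65. Over all 6 libraries the groups overlapped (exact two-sided permutation test, p = 0.3, and p = 0.25 for exact sign flips over mice, the smallest that 3 mice allow).

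**Figure D3:**
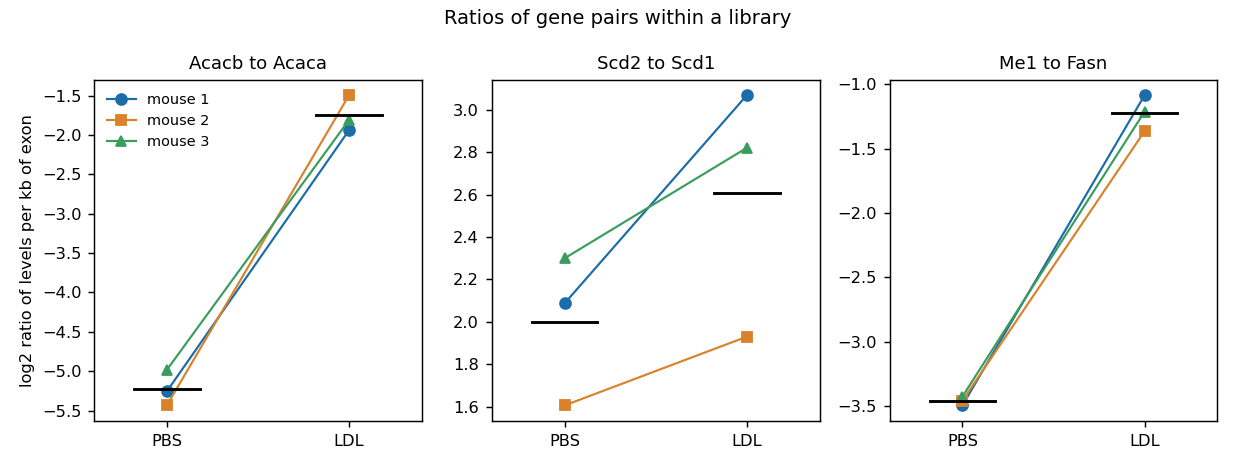
Log2 ratios of levels per kilobase of exon within a library (vertical axes, which do not start at 0) for Acacb to Acaca, Scd2 to Scd1 and Me1 to Fasn, with 1 line per mouse and black bars for means of 3 libraries. The first and last ratio are separated by treatment, and the middle ratio overlaps, with mouse 2 low in both treatments.

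Srebf1 (ENSMUSG00000020538, chromosome 11, 60089913 to 60113407, minus strand) had normalized counts of 4383, 3523 and 4271 with PBS and 2459, 3284 and 2876 with LDL. The groups did not overlap, and mouse 2 again differed least between treatments, with a ratio of 0.932 beside 0.561 in mouse 1. LDL against PBS gave -0.50 ± 0.13 (log2, SE; limma, adjusted p = 0.108, or 0.0379 in the blocked fit), under 1.5-fold. Leaving out the LDL-treated organoids of mouse 2 gave a call (log2 fold change -0.60, limma, adjusted p = 0.0140), while leaving out those of mouse 1 gave -0.39 and leaving out the PBS-treated organoids of mouse 2 gave -0.60 (limma, adjusted p = 0.219 and 0.191). The gene-level count cannot tell the SREBP-1a and SREBP-1c transcripts apart.

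Mlxipl (ENSMUSG00000005373, chromosome 5, 135118744 to 135168615, plus strand) had 3304, 3227 and 3007 with PBS and 2343, 2603 and 2702 with LDL. Every LDL-treated value was below every PBS-treated value, with the smallest gap in mouse 3. LDL against PBS gave -0.32 ± 0.092 (log2, SE; limma, adjusted p = 0.121, or 0.0444 in the blocked fit), under 1.5-fold.

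Of the 7 genes with a lower mean, 6 differed least between treatments in mouse 2, and 6 were lower in all mice. Summed normalized counts of 9 enterocyte markers were 61482 with PBS and 66998 with LDL in mouse 2, against 32094 to 39140 in the libraries of the other mice. Whether this had a part in the difference between mice was not tested. The coefficient of variation between mice ranged from 3.52% for Me1 to 27.7% for Scd1 with PBS, and from 5.08% for Me1 to 61.9% for Scd1 with LDL.

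Per kilobase of exon, the PBS-treated organoids held the genes in the order Scd2 (7242 ± 263 normalized counts per kilobase), Scd1 (1858 ± 515), Fasn (1648 ± 94.9), Srebf1 (689 ± 79.3), Acly (464 ± 21.7), Elovl6 (462 ± 34.1), Mlxipl (454 ± 21.99), Acaca (261 ± 14.1), Me1 (150 ± 5.26) and Acacb (7.01 ± 0.945; SD, n = 3). Scd1 and Fasn did not differ beyond their spread, nor did Acly, Elovl6 and Mlxipl. With LDL, Me1 moved from place 9 to place 5 of the 10, at 592 ± 30.1 normalized counts per kilobase, level with Elovl6 at 595 ± 51.7. Acacb stayed last at 72.2 ± 19.7 normalized counts per kilobase, and among all genes tested its level moved from percentile 11.3 to percentile 49.9. Scd2 stayed first in both treatments.

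**Figure D4:**
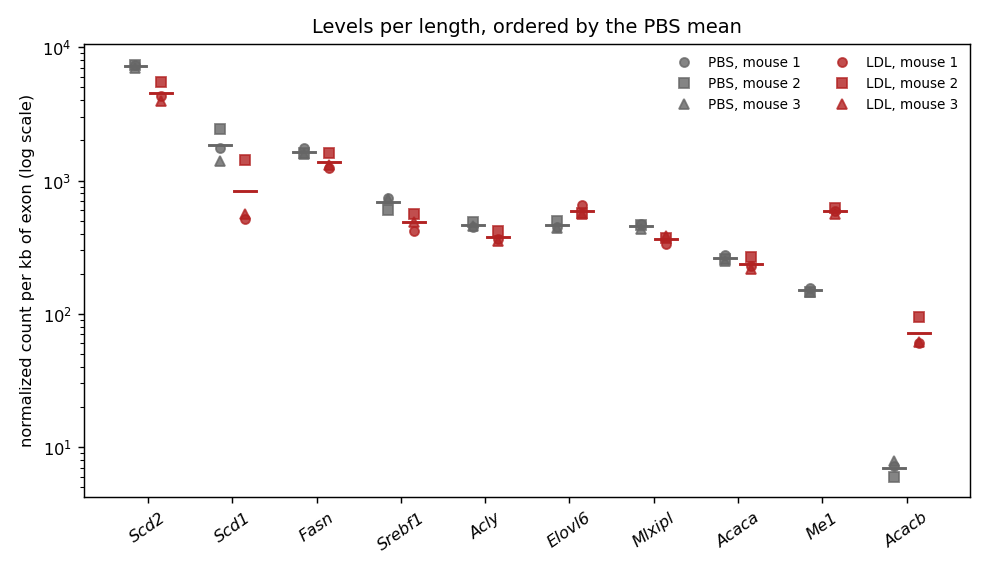
Normalized counts per kilobase of exon (vertical log axis) of the 10 genes, ordered by the PBS mean. Grey points are PBS-treated and red points LDL-treated organoids, shapes are mice 1 to 3, and bars are means. Acacb rises but stays the lowest of the 10, and Me1 reaches the level of Elovl6.

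Genes around the supply of acetyl-CoA and NADPH, some of them mitochondrial, had no common direction as a list. Of 15 tested, 5 were higher and 10 lower, with a median log2 fold change of -0.11. The 5 higher were H6pd, G6pdx, Pgd, Idh1 and Pcx, and all but Pcx were higher in all mice. Idh1 and Pcx were not called and are named after their values were seen. H6pd, the hexose-6-phosphate dehydrogenase of the endoplasmic reticulum, was the only gene limma called without the block and rose from 519 ± 61.0 to 927 ± 122 (SD, n = 3; log2 fold change 0.83, limma, adjusted p = 0.0345). Its call was lost when any library other than the LDL-treated one of mouse 2 was left out, and the blocked fit called it (limma, adjusted p = 0.00138). G6pdx, which opens the pentose phosphate pathway and makes cytosolic NADPH, had 2674 ± 307 with PBS and 3803 ± 15.8 with LDL (SD, n = 3), higher in all mice but not called (log2 fold change 0.51, limma, adjusted p = 0.0566, or 0.00744 in the blocked fit). Without the block limma and edgeR called 0 downregulated and DESeq2 2, beside 348 of all genes with DESeq2. Limma also called 2 downregulated with no filter, beside 245 of all genes. It called 5 when the LDL-treated organoids of mouse 2 were left out, beside 1133 of all genes. In limma 6 were below an unadjusted p-value of 0.05 (3 higher, 3 lower), beside 19.7% of all genes. The blocked fit called 2 downregulated, Aacs, acetoacetyl-CoA synthetase, with a log2 change of -0.67 (limma, adjusted p = 0.00441) and Me2, the mitochondrial malic enzyme, with -0.73 (limma, adjusted p = 0.00224). Neither the citrate carrier gene Slc25a1 (log2 fold change -0.28) nor the acetyl-CoA synthetase gene Acss2 (-0.42) was called, with adjusted p-values of 0.409 and 0.187 from limma. Acss2 was lower in all mice and had an adjusted p-value of 0.0454 in the blocked limma fit, under 1.5-fold.

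Of 16 other desaturase, elongase and elongation cycle genes, 13 were tested, 4 higher and 9 lower with a median log2 fold change of -0.12. Without the block limma and edgeR called 0 and DESeq2 2, and 4 were below an unadjusted p-value of 0.05 in limma, all lower. Of all genes tested, 19.7% were below that p-value, 9.73% lower and 9.96% higher, which is the background for this and the next lists. The block called Fads1 and Fads2, the desaturases of polyunsaturated acids, downregulated, with log2 changes of -0.84 and -0.71 (limma, adjusted p = 0.00514 and 0.00799). Of 13 glycerolipid synthesis genes, 12 were tested, 7 higher and 5 lower with a median log2 fold change of 0.11. Without the block limma called 0, edgeR 1 and DESeq2 3, and 5 were below an unadjusted p-value of 0.05 in limma (3 higher, 2 lower). The block called Gpam, which starts glycerolipid assembly (log2 fold change -0.94, limma, adjusted p = 0.000862), and Lpin1 (-0.63, limma, adjusted p = 0.00514) downregulated and Dgat2, which completes triglycerides, upregulated (0.78, limma, adjusted p = 0.0129). Pnpla3, known as an SREBP-1c target, was under the filter with 8, 12 and 8 reads with PBS and 1, 0 and 1 with LDL, and is named after its values were seen. Of 9 genes of mitochondrial fatty acid synthesis, 8 were tested, 1 higher and 7 lower, with a median log2 fold change of -0.12, and 0 were called by limma, edgeR or DESeq2, with 1 below an unadjusted p-value of 0.05 in limma.

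Among 19 genes that control the carboxylases and the synthase, 17 were tested, 13 higher and 4 lower with a median log2 fold change of 0.081. Only Cpt1a, the carnitine palmitoyltransferase that malonyl-CoA inhibits, was called, with 3084 ± 120 with PBS and 6422 ± 577 with LDL (SD, n = 3; log2 fold change 1.05, limma, adjusted p = 0.00447). Mlycd, the decarboxylase that removes malonyl-CoA, had a log2 change of -0.13 (limma, adjusted p = 0.829), and Mid1ip1, a protein that promotes polymerization of the carboxylases, had 0.15 (limma, adjusted p = 0.446). Its relative Thrsp was under the filter, with normalized counts of 3.66 to 9.19.

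The processing and partner genes of SREBP-1 and ChREBP numbered 13, of which 6 were higher and 7 lower with a median log2 fold change of -0.10. Without the block limma and edgeR called 0 and DESeq2 1, and 3 were below an unadjusted p-value of 0.05 in limma, beside the 19.7% of all genes. The blocked limma fit called 1, Nr1h3, which encodes LXRα, an inducer of Srebf1. Nr1h3 had 631 ± 63.7 with PBS and 379 ± 84.5 with LDL (SD, n = 3; log2 fold change -0.75, limma, adjusted p = 0.0770, or 0.00329 in the blocked fit). Scap, the SREBP escort protein, had a log2 change of 0.28, its anchor Insig1 -0.33 and the ChREBP partner Mlx -0.14, with adjusted p-values of 0.335, 0.384 and 0.685 from limma. Insig1 was lower in all mice and had an adjusted p-value of 0.0330 in the blocked limma fit, under 1.5-fold. Of 6 LXR targets outside the pathway, with a median log2 fold change of -0.18, limma and edgeR called 0 and DESeq2 1 without the block, and 1 was below an unadjusted p-value of 0.05 in limma. The blocked fit called Mylip, a ubiquitin ligase (log2 fold change -1.79, limma, adjusted p = 0.0508, or 0.00273 in the blocked fit). Of 10 sugar-responsive ChREBP targets, with a median log2 fold change of 0.045, limma, edgeR and DESeq2 called 0 without the block, and 0 were below an unadjusted p-value of 0.05 in limma. The blocked fit called Khk, ketohexokinase, downregulated (log2 fold change -0.83, limma, adjusted p = 0.0101). Of 18 sterol synthesis and uptake genes under SREBP-2, limma, edgeR and DESeq2 called 0 with or without the block, and 3 were below an unadjusted p-value of 0.05 in limma. Their median log2 fold change was -0.14.

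A list of 14 PPAR-responsive genes, not all of them genes of fatty acid oxidation, had higher values throughout. All 14 were higher, with a median log2 fold change of 2.06. In limma 12 were called upregulated, beside 0.878% of all genes, and the blocked fit called all 14, beside 5.68%. Of the 14, 5 were called without the PBS-treated organoids of mouse 1 or the LDL-treated organoids of mouse 3, and 7 without the PBS-treated organoids of mouse 3. Large changes among them were those of Cyp4a10 (7.56), Pdk4 (5.80), Vnn1 (3.15) and Angptl4 (2.76), all called (adjusted p between 0.000281 and 0.00137 from limma). Several of these genes were chosen by the study on these samples, so the list is not independent evidence of its direction. Me1 and Acacb are not in it, and Cpt1a is.

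**Figure D5:**
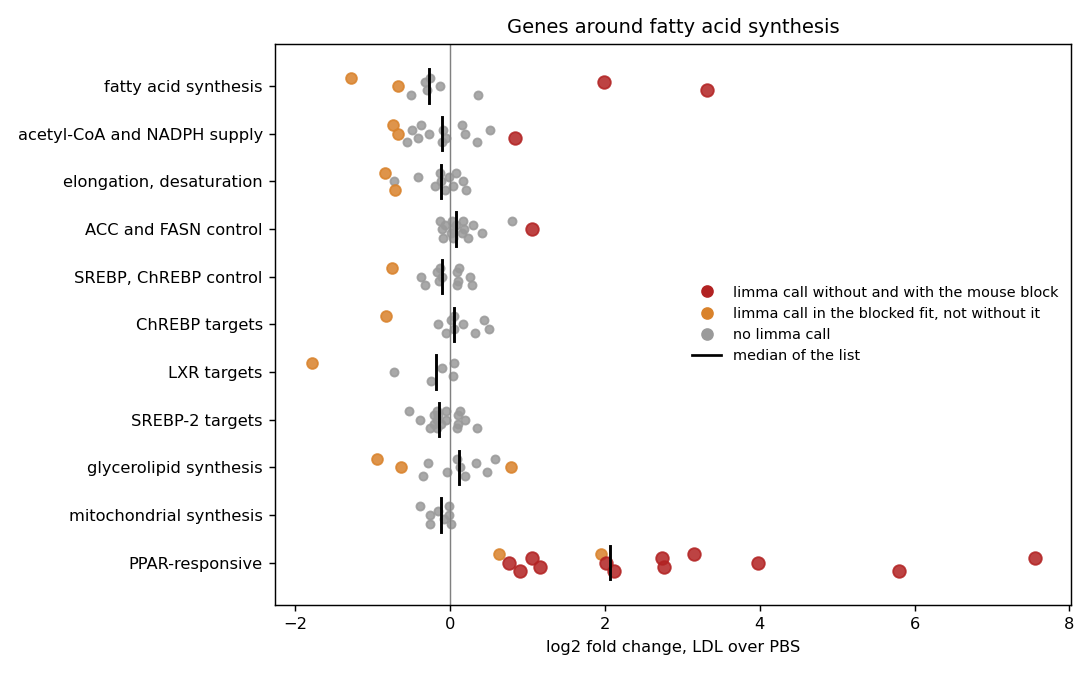
Log2 fold changes of the 10 genes and of 10 lists of related genes (rows; horizontal axis). Each point is a tested gene, red where it was called without and with the mouse block, orange where limma called it with the block and not without, and grey elsewhere, and black lines are medians. Red points outside the PPAR-responsive row are Acacb, Me1, H6pd and Cpt1a.

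Among the 11938 genes whose normalized counts averaged 100 or more, those whose log2 values over the 6 libraries were most like Acacb were Isx, Entpd8, Gm13657 and Rab32, with Pearson's r between 0.995 and 0.997. Those most like Me1 were Isx, Entpd8, Gm13657 and Pgd, with r between 0.994 and 0.998. The points share 3 mice and 2 treatments, so any gene that separates the treatments evenly scores high, and r is given as a description. Isx, an intestinal homeobox gene, had a log2 change of 6.51 and Entpd8, an ectonucleotidase, 1.51, both called (limma, adjusted p = 0.000357 and 0.00339). Pgd, the second NADPH-producing enzyme of the pentose phosphate pathway, had mean normalized counts of 7850 with PBS and 10012 with LDL (log2 fold change 0.35, limma, adjusted p = 0.0872, or 0.0211 in the blocked fit).

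The genes beside Acacb and Me1 did not pass the test. Ung, 6923 bases to the left of Acacb, had a log2 change of 0.29 (limma, adjusted p = 0.429), and Myo1h, 38405 bases to the right, had 0.12 (limma, adjusted p = 0.933). Pgm3, 7966 bases to the left of Me1, had -0.16 (limma, adjusted p = 0.622).

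Because Me1, Acacb and the desaturases are also abundant in fat, muscle or liver, markers of other cell types were measured beside them. Epithelial markers were abundant, with sums of 67009 to 69234 over 6 genes in PBS-treated and 74544 to 91979 in LDL-treated organoids. The adipocyte list summed to 99.3 to 132 with PBS and 223 to 270 with LDL over 6 genes. Of these, Adipoq had no read in any library, Plin1, Lep and Fabp4 stayed under the filter, and Cidec, a lipid droplet gene, rose from 52.3 ± 13.0 to 176 ± 11.7 (SD, n = 3; log2 fold change 1.76, limma, adjusted p = 0.0136). The part of this list in the rise of Acacb and Me1 was not tested. The muscle list summed to 169 to 442 with PBS and 239 to 296 with LDL, and the hepatocyte list to 514 to 721 with PBS and 167 to 264 with LDL. The muscle value of 442 was that of the PBS-treated library of mouse 1, where Myog alone had 289, against 0 in the other PBS-treated libraries. Of 3 muscle genes tested, 2 were higher and 1 lower. Acta1 was higher in all mice (log2 fold change 0.67, limma, adjusted p = 0.0753, or 0.00907 in the blocked fit). Fibroblast and endothelial markers summed to 21.1 to 30.6 with PBS and 10.9 to 42.7 with LDL, and leukocyte markers to 229 to 299 and 231 to 295.

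Among intestinal cell types, the sum of 6 goblet cell markers was 51769 to 56970 with PBS and 29618 to 36283 with LDL, and 3 of them were called downregulated (Fcgbp, Agr2, Spink4) and 1 upregulated (Clca1). Sums of 6 Paneth cell markers were 13454 to 22006 with PBS and 10359 to 12873 with LDL, and those of 6 stem cell markers were 20454 to 36440 with PBS and 16568 to 23642 with LDL. Of the 6 stem cell markers, 4 were higher and 2 lower, with a median log2 fold change of 0.18. The lower were Olfm4 (-1.17, limma, adjusted p = 0.156, or 0.0386 in the blocked fit) and Smoc2 (-0.79, limma, adjusted p = 0.118, or 0.0254 in the blocked fit). Ascl2 was higher in all mice (1.22, limma, adjusted p = 0.104, or 0.00333 in the blocked fit). Sums of enteroendocrine markers were 9394 to 14690 with PBS and 7208 to 11423 with LDL, and those of tuft cell markers 239 to 337 and 186 to 493. The part of these differences in the lower values of Scd1, Scd2 and Srebf1 was not tested, and in these bulk samples fewer cells of a type and less RNA per cell cannot be told apart.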

How the data were processed

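RNA-Seq libraries of 3 LDL-treated and 3 PBS-treated organoid cultures were analyzed. Treatments and mice were taken from the labels, in which libraries with the same replicate number share an animal identifier. As a check of the pairing, residuals from the treatment means correlated across genes within the same mouse with r = 0.484, 0.421 and 0.462. Per the paper's methods and the submitters' processing notes, stranded libraries were made after ribosomal RNA removal, demultiplexed with bcl2fastq 2.20, aligned to GRCm39 with STAR and counted with featureCounts. The deposited signal values are counts per gene that the authors divided by a size factor for each library, and 100% of them came out as whole reads (tolerance 0.001 of a read). The authors used DESeq2, whose design formula is not given in the sources used here.

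Genes with a mean of at least 10 were compared as log2(normalized count + 1) with limma 3.58.1 in R 4.3.3 (eBayes with a trend, two-sided, Benjamini-Hochberg adjustment over 18459 genes). Fold changes are on this scale. The depth of 22061545 to 31073360 reads per library sets the counting error. Values of a second fit, blocked on the mouse, are printed where a call changes, a count moves by more than 1.5 times, or its adjusted p-value alone passed 0.05. Also tried were quantile and upper-quartile scaling, other pseudocounts (0.5, 5), other filters (none, a mean of 50), edgeR 4.0.16 and DESeq2 1.42.0 on the recovered reads with and without the block, each library left out, mouse 3 left out, an unadjusted p-value and any fold. Ratios of 3 gene pairs used exact permutation tests. Gene lengths, positions and symbols came from GENCODE M39, which held 54749 of the 55416 identifiers. Figures were drawn with Python 3.11.15 and matplotlib 3.10.9. Limma with and without the block, and edgeR and DESeq2 without it, were tested on simulated data that held no mouse effect. The other fits were not.

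The 10 genes, the 10 pathway lists and the marker lists were chosen with earlier results of these data known. Of each pathway list, the genes named were those called in either limma fit, at most the 5 largest changes, and a set of regulators and carriers, called or not (Slc25a1, Acss2, G6pdx, Mlycd, Cpt1a, Mid1ip1, Thrsp, Scap, Insig1, Nr1h3, Mlx), plus the 4 genes most like Acacb and the 4 most like Me1. Some genes named by this rule are not reported here.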

Additional observations from a re-analysis of the deposited data

How the results depend on the processing

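No log2 fold change of the 10 genes changed sign under any of 21 alternatives. Acacb ranged from 3.11 to 3.50 and Me1 from 1.95 to 2.02, and both stayed called except without both libraries of mouse 3, where 0 of the 10 genes and 0 of all genes were called in either direction. The limit there is that 2 against 2 libraries remain, and with the replicate block and without mouse 3, a fit added after seeing the data, 265 genes were called upregulated and 2 of the 10.

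Over all genes, 162 were called upregulated and 73 downregulated. These counts were 506 and 245 with no filter on the mean, 1048 and 639 in limma with the replicate block, 846 and 348 with DESeq2, 1171 and 588 with edgeR and the block, 981 and 511 with DESeq2 and the block, and 1170 and 776 at an unadjusted p-value under 0.05 with more than 1.5-fold. Leaving out 1 library gave 18 (without the LDL-treated library of mouse 3) to 1179 genes upregulated (without that of mouse 2) and 2 to 1133 downregulated. Of the 10 genes, 0 were called downregulated, against 1 with no filter or with DESeq2 (Scd2), 2 with any blocked fit of limma, edgeR or DESeq2 on all mice or at an unadjusted p-value under 0.05 with more than 1.5-fold (Scd1, Scd2), and 0 to 3 when 1 library was left out, with 3 (Scd1, Scd2, Srebf1) only without the LDL-treated library of mouse 2. The cause was not tested. The block changed no other call among the 10 genes. The 3 ratios kept their sign, with p = 0.25 in each for exact sign flips over mice (replicate block), the smallest possible.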
